A study of Homo sapiens with 4 samples.

Results

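The 88 genes described here encode the nuclear subunits of the mitochondrial respiratory chain and ATP synthase, together with a few close relatives that carry the same names. They were taken by symbol: NDUF genes of the A, B, C, S and V series for complex I, SDHA to SDHD for complex II, UQCR genes for complex III, COX4 to COX8 genes for complex IV and ATP5 genes for complex V, without symbols that end in P and a number, as pseudogenes do. They are 88 of the 25133 genes with a symbol in the deposited tables, and no expression value was used to choose them. Complex I had 37, complex II 4, complex III 9, complex IV 17 and complex V 21. The values came from bulk RNA-seq of MDA-MB-231, an established human breast cancer line of the triple-negative, mesenchymal-like kind. Cells were infected with a lentivirus that carried either a scramble short hairpin RNA (shSCR, genotype given as WT, 2 libraries) or a hairpin against JARID2 (shJARID2, genotype given as JARID2 knockdown, 2 libraries). Both groups were grown in DMEM with serum, infected in the presence of Polybrene, and lysed in Trizol for total RNA. The number of hairpins, whether the cells were clones, and whether the libraries came from separate cultures are not stated by the labels, so the p-values below reflect only how much these libraries differ from each other. JARID2 is a DNA-binding partner of Polycomb repressive complex 2, which methylates lysine 27 of histone H3.

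Complexes I to IV of the inner mitochondrial membrane pass electrons from NADH and succinate to oxygen, and complexes I, III and IV pump protons as they do so. Complex V, the ATP synthase, lets the protons back and makes ATP. A few core subunits are encoded by mitochondrial DNA, and all the others are nuclear genes whose products must be imported and assembled in fixed proportions. NRF1, the ETS factor GABP, YY1, the oestrogen-related receptors and Sp1 are known regulators of these nuclear genes.

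The upstream sequences of 3 members are shown. NDUFB4 and ATP5PD were among the members that rose most and COX8A was the member that fell most. NDUFB1 and NDUFA12 rose more than NDUFB4 and ATP5PD, but their windows held none of the motifs searched below and they are not shown. NDUFS4, with the YY1 letters in its window, and NDUFA4, with none of the motifs, also rose more than NDUFB4 and are not shown. Each sequence shown is the 170 bases before the RefSeq gene start in GRCh38.p14, written 5′ to 3′ on the gene's strand. Capitals mark letters of an NRF1, ETS or Sp1 motif on either strand. The stretches lie at chr3:120596166-120596335 (plus strand) for NDUFB4, chr17:75046970-75047139 (minus strand) for ATP5PD and chr11:63974450-63974619 (plus strand) for COX8A.
NDUFB4: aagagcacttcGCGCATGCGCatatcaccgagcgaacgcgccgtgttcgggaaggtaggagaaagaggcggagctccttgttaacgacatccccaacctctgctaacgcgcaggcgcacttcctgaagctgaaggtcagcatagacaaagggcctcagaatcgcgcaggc
ATP5PD: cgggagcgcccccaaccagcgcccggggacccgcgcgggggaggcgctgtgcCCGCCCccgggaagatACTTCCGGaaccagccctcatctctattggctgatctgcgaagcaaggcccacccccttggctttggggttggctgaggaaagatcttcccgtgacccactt
COX8A: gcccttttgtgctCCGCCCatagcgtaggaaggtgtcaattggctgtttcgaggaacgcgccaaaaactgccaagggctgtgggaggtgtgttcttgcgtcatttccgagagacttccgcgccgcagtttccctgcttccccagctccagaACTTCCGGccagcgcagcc
The NDUFB4 stretch holds the NRF1 palindrome, which is its run of capitals, and the ATP5PD and COX8A stretches each hold the ETS letters CCGGAAGT and the Sp1 letters GGGCGG read from the opposite strand. No matches overlapped in these stretches. In GENCODE 29 the gene's own first exon begins inside each stretch and covers its last 27 bases for NDUFB4, 16 for ATP5PD and 13 for COX8A, so that the COX8A match of the ETS letters runs into the exon.

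RefSeq windows of 250 bases before to 50 after the start were matched for 70 of the 88 members, in 84 windows. The ETS letters stood in 14.3% of the members' windows and in 4.14% of all 35116 windows. For NRF1 the shares were 4.76% and 1.24%, for YY1 (AAGATGGC) 15.5% and 2.89%, for oestrogen-related receptors (TCAAGGTCA) 1.19% and 0.353%, and for Sp1 59.5% and 45.0%. Over the windows of all tested genes the shares were 7.88% for ETS, 2.1% for NRF1, 5.02% for YY1, 0.149% for the receptors and 66.5% for Sp1. Both strands were searched, and a window could hold several of these motifs. The ETS letters were found in windows of 4 of 23 matched members that were higher in shJARID2 and of 2 of 11 that were lower. They were found for 0 of 17 that did not pass and 6 of 19 below the filter. In the same order, the YY1 letters were found for 3 of 23, 2 of 11, 5 of 17 and 2 of 19. The NRF1 letters were found for 1 of 23, which was NDUFB4, 0 of 11, 1 of 17 and 2 of 19. A match is a description of letters and not of binding.

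JARID2 itself (chromosome 6, 15246296 to 15522040, plus strand, GRCh38) was listed at 10.8 and 10.8 FPKM in the shSCR libraries and at 3.88 and 3.91 FPKM in the shJARID2 libraries. FPKM is the number of fragments per kilobase of exon, scaled to the mapped fragments of its library, so levels of different genes can be compared per length. The shJARID2 mean was 0.360 of the shSCR mean. On the scale used for all tests below, log2(FPKM + 1), the change was -1.27 (SE 0.0594, adjusted p = 0.0014, limma over 12455 genes with a mean of at least 1 FPKM). The value 1 added before the logarithm makes the changes of low genes look smaller than they are.

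Some features of the whole data set touch every value below. Depths worked out from the steps between FPKM values were about 15500000 and 16200000 reads for shSCR and 13000000 and 12800000 for shJARID2. In this comparison 59.7% of the 12455 genes passed the test (adjusted p below 0.05), with 28.0% higher and 31.6% lower in shJARID2, and the median change was -0.018. Over 10430 protein-coding genes the change followed the GC content of the transcripts, with a Spearman rho of -0.72 across genes, which are not independent replicates. Values are therefore given as measured and after a correction that removed each library's trend with GC content over 12039 genes; then 44.2% passed, 22.7% higher and 21.4% lower. What set the trend was not tested. Of the markers of this line, CD44, EGFR, CAV1 and AXL lay between 53.4 and 417 FPKM, while VIM, the vimentin gene that mesenchymal-like cells are known for, was listed at only 2.10 to 4.20 FPKM. Luminal and basal markers (ESR1, PGR, GATA3, KRT5) reached at most 0.451 FPKM and markers of blood, endothelial, fibroblast and liver cells at most 0.837 FPKM in any library. In bulk RNA, a change in the share of cells of a kind and a change in the RNA of each cell cannot be told apart.

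Of the 88 members, 64 passed the filter on low values and 24 did not. Among the 64, 27 were higher in shJARID2 (42.2%, beside 28.0% of all genes), 15 were lower (23.4%, beside 31.6%) and 22 did not pass the test. Their median change was 0.12. After GC correction 30 were higher (46.9%, beside 22.7%) and 12 lower (18.8%, beside 21.4%), with a median of 0.20. Both fits called 26 members higher and 11 lower, and no member was called in opposite directions by them. Changes of at least 2-fold on the log2(FPKM + 1) scale were seen for 10 members upward (15.6%, beside 2.83% of all genes) and 3 downward (4.69%, beside 6.2%). The libraries of the groups did not overlap for 33 members in the higher direction and 23 in the lower, beside 39.8% and 43.1% of all genes. The summed FPKM of all members was 1213 and 1262 in shSCR and 1581 and 1503 in shJARID2.

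**Figure D1:**
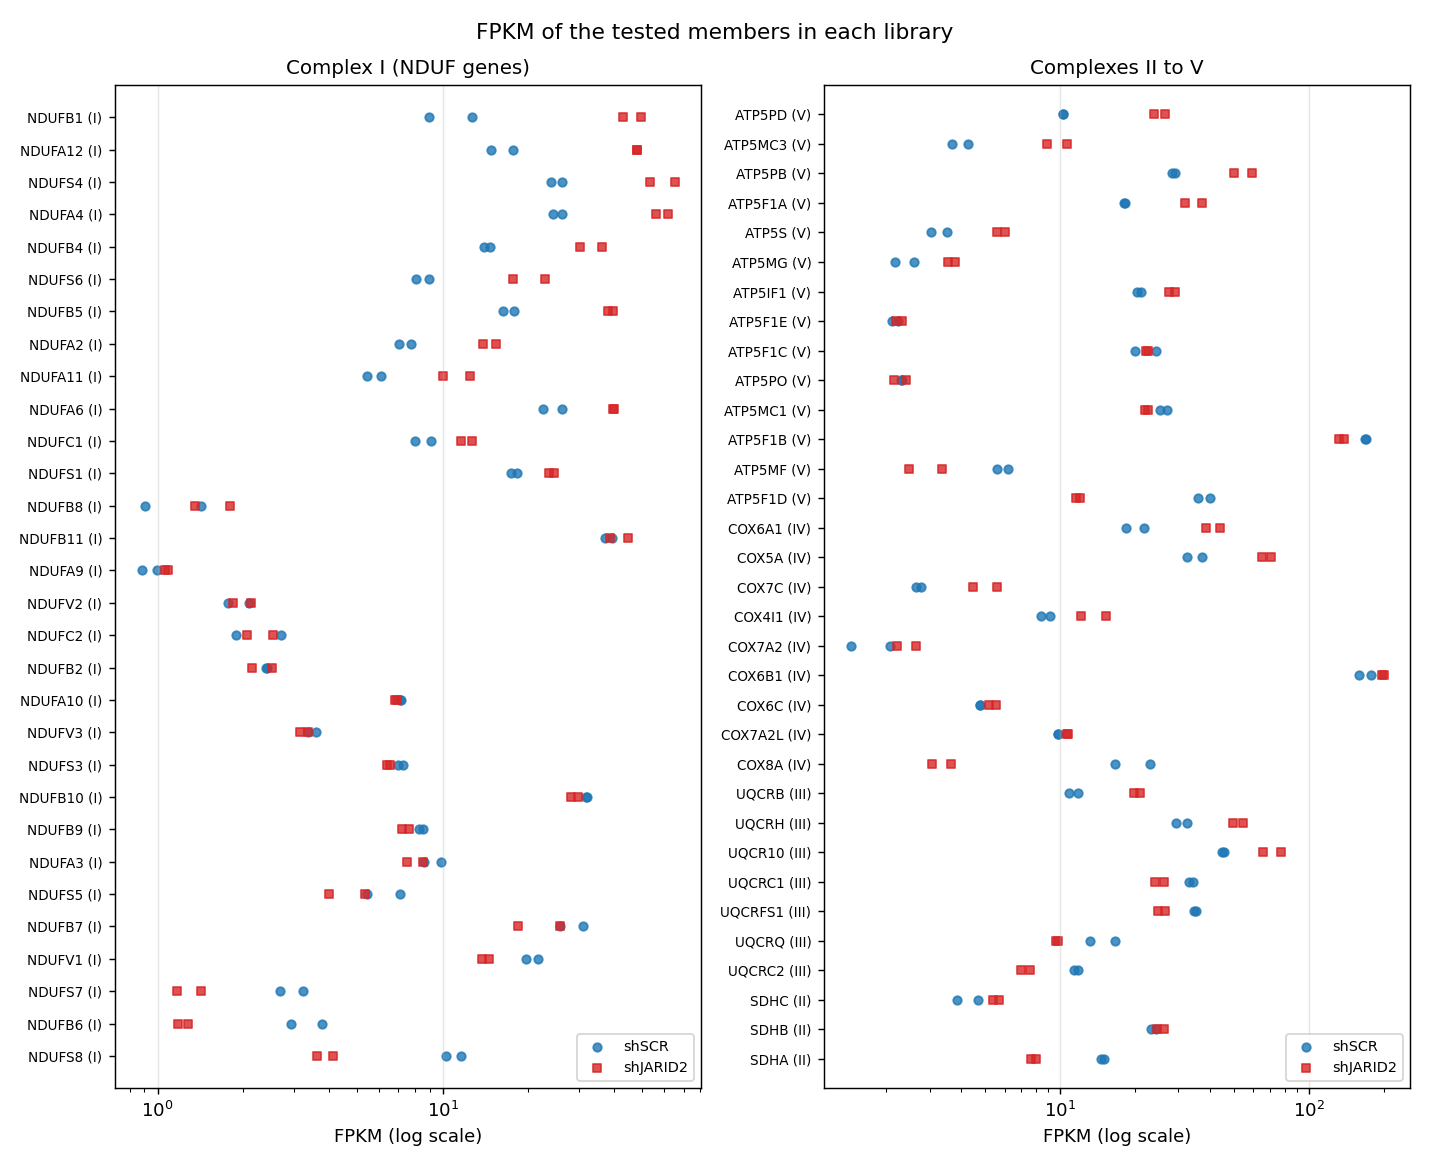
FPKM (log scale) of 63 of the 64 tested members in each library, shSCR as circles and shJARID2 as squares, ordered by change within each complex. NDUFB1 at the top left and COX8A among the complex IV genes show the widest gaps between groups, while COX6B1 and ATP5F1B were the most abundant members, with changes of 0.24 and -0.32.

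The reads behind these values were enough for most members: the recovered read number ran from 20 to 6396 per member and library, with a median over members of 639. Of the 64 tested members, 29 shared at least 10% of their annotated exon length with another gene or had at least 6 pseudogene copies in the annotation. Whether counting used strand, and how reads with several matches were treated, is not stated by the labels, so values of these 29 are uncertain. Among the other 35, 15 were higher and 10 lower, where 28.0% and 31.6% of all genes were.

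Complex I, which oxidises NADH, holds the most members. Of its 31 tested members, 12 were higher (38.7%, beside 28.0% of all genes, 42.9% in complex III, 55.6% in IV and 50% in V). Another 5 were lower (16.1%, beside 31.6% of all genes) and 14 did not pass. After GC correction 15 were higher (48.4%, beside 22.7%) and 3 lower (9.68%, beside 21.4%). Complexes were assigned by symbol, so complex I counts and sums include NDUFA4, known as a complex IV subunit. Those of complex V include ATP5IF1 and ATP5S, which are not established subunits of the enzyme. The summed FPKM was 369 and 388 in shSCR and 587 and 561 in shJARID2. Core subunits, which carry the flavin, the iron-sulphur clusters and the quinone site, and accessory subunits, which surround them, had different counts. Of the 7 nuclear core subunits 1 was higher (14.3%) and 4 were lower (57.1%), beside 28.0% and 31.6% of all genes. Of 23 tested accessory subunits 10 were higher (43.5%) and 1 was lower (4.35%). After GC correction 1 was higher (14.3%) and 2 were lower (28.6%) among the core, beside 22.7% and 21.4% of all genes. Among the accessory subunits 13 were then higher (56.5%) and 1 lower (4.35%). The median change of the core turned from below 0 to 0.076 with the correction, and that of the accessory subunits went from 0.12 to 0.50. Of the 7 core subunits 5 had uncertain values as defined above. The summed core FPKM was 66.7 and 71.0 in shSCR and 56.7 and 57.3 in shJARID2, whereas the accessory sum was 276 and 292 in shSCR and 468 and 447 in shJARID2. The difference between the classes was not tested.

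NDUFB1, a small accessory subunit of the membrane arm (chromosome 14, 92116122 to 92121917, minus strand), rose most of all members. It was listed at 8.92 and 12.6 FPKM in shSCR and at 49.4 and 42.9 FPKM in shJARID2. Both knockdown libraries lay above both scramble libraries, and the means (10.8 ± 2.63 and 46.2 ± 4.63, SD, n = 2 each) stood at a ratio of 4.28. The change was 2.02 (SE 0.175, adjusted p = 0.0019) and 1.97 after GC correction.

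NDUFA12, an accessory subunit of the matrix arm (chromosome 12, 94897055 to 95003770, minus strand), had 14.8 and 17.7 FPKM in shSCR and 48.0 and 48.0 FPKM in shJARID2. The groups were far apart, with a ratio of means of 2.96 and a change of 1.51 (SE 0.0912, adjusted p = 0.0014; 1.31 after GC correction). NDUFS4, a matrix-arm subunit needed for a stable, active complex and a known Leigh syndrome gene, had the highest mean of complex I, with 24.1 and 26.2 FPKM in shSCR and 65.2 and 53.5 FPKM in shJARID2. Its libraries did not overlap and it rose by 1.20 (0.92 corrected). NDUFB4, another membrane-arm subunit, went from 14.7 and 14 FPKM to 36.3 and 30.3 FPKM, a change of 1.16 (0.99 corrected). Its uncertainty is that the annotation lists 12 pseudogene copies of it.

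The rise was frequent among the accessory subunits of the matrix arm: of 7 tested, 5 were higher (71.4%) and none was lower by the limma test, as measured and after correction. Of all genes 28.0% were higher as measured and 22.7% after correction. Besides NDUFA12 and NDUFS4 these were NDUFS6 (1.15, 1.42 corrected), a zinc-binding subunit, NDUFA2 (0.90, 1.04 corrected) and NDUFA6 (0.69, 0.63 corrected). NDUFS6 stood at 8.09 and 8.98 FPKM in shSCR and 22.8 and 17.7 FPKM in shJARID2. NDUFA2 exons overlap those of other genes for 13.0% of their length. The other 2, NDUFV3 at -0.08 and NDUFA9 at 0.10, did not pass.

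In the membrane arm 5 of 16 tested subunits were higher (31.2%, beside 28.0% of all genes) and 1 was lower (6.25%, beside 31.6%). NDUFB5 had 17.8 and 16.3 FPKM in shSCR and 39.6 and 38.1 FPKM in shJARID2, with a change of 1.14 (0.78 corrected) and no overlap of the groups. NDUFA11 rose by 0.85 and, after GC correction, by 1.57; it overlaps other genes over 12.1% of its exons. NDUFC1 rose by 0.46, a call that was lost without the first shSCR library, and 18.5% of its exon length overlaps MGARP. NDUFB11 had 39.2 and 37.1 FPKM in shSCR and 38.7 and 44.7 FPKM in shJARID2. Its groups overlapped and its change of 0.12 did not pass, but the corrected change of 0.67 did, and 44.9% of its exon length overlaps RBM10. NDUFB10 and NDUFA3, at -0.13 and -0.18, likewise passed only after correction (0.43 and 0.41). The NDUFA3 call was lost without the first shSCR library. The changes of the 14 complex I members that did not pass ran from -0.37 for NDUFB7 to 0.26 for NDUFB8.

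The 1 accessory subunit that fell was NDUFB6, with 2.93 and 3.78 FPKM in shSCR and 1.28 and 1.18 FPKM in shJARID2. Both knockdown libraries were below both scramble libraries, at a ratio of 0.367 and a change of -0.96 (SE 0.136, adjusted p = 0.0054; -1.26 corrected).

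Among the core subunits NDUFS8 fell most. This subunit carries a pair of iron-sulphur clusters near the quinone site (chromosome 11, 68030617 to 68036644, plus strand). It had 10.3 and 11.6 FPKM in shSCR and 3.62 and 4.11 FPKM in shJARID2. The groups did not overlap, the ratio of means was 0.353, and the change was -1.30 (SE 0.0952, adjusted p = 0.0015) and -0.57 after correction, still past the threshold.

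NDUFS7 and NDUFV1, the flavin-bearing subunit, were called lower only without the GC correction. NDUFS7 had 2.68 and 3.25 FPKM in shSCR and 1.17 and 1.42 FPKM in shJARID2, and its change of -0.79 became 0.076 after correction. It lost the call without the second shSCR library, and 49.1% of its exon length overlaps other genes. NDUFV1 had 19.6 and 21.6 FPKM in shSCR and 13.8 and 14.6 FPKM in shJARID2, with changes of -0.51 and 0.11. Other genes overlap 12.0% of its exon length. NDUFS1, the largest core subunit, was the only core subunit called higher, at 18.2 and 17.4 FPKM in shSCR and 24.6 and 23.7 FPKM in shJARID2 (0.42, 0.19 corrected). Its corrected call was lost without either shSCR library and without the first shJARID2 library. Exons of other genes overlap 11.7% of NDUFS1.

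NDUFA4, which carries a complex I name but is known as a subunit of complex IV, had 26.3 and 24.3 FPKM in shSCR and 61.9 and 56.2 FPKM in shJARID2. The ratio of means was 2.33 with no overlap (change 1.19, SE 0.0707, adjusted p = 0.0014; 0.82 corrected). Its paralog NDUFA4L2, a hypoxia-induced gene, was at most 0.092 FPKM in any library and was not tested.

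**Figure D2:**
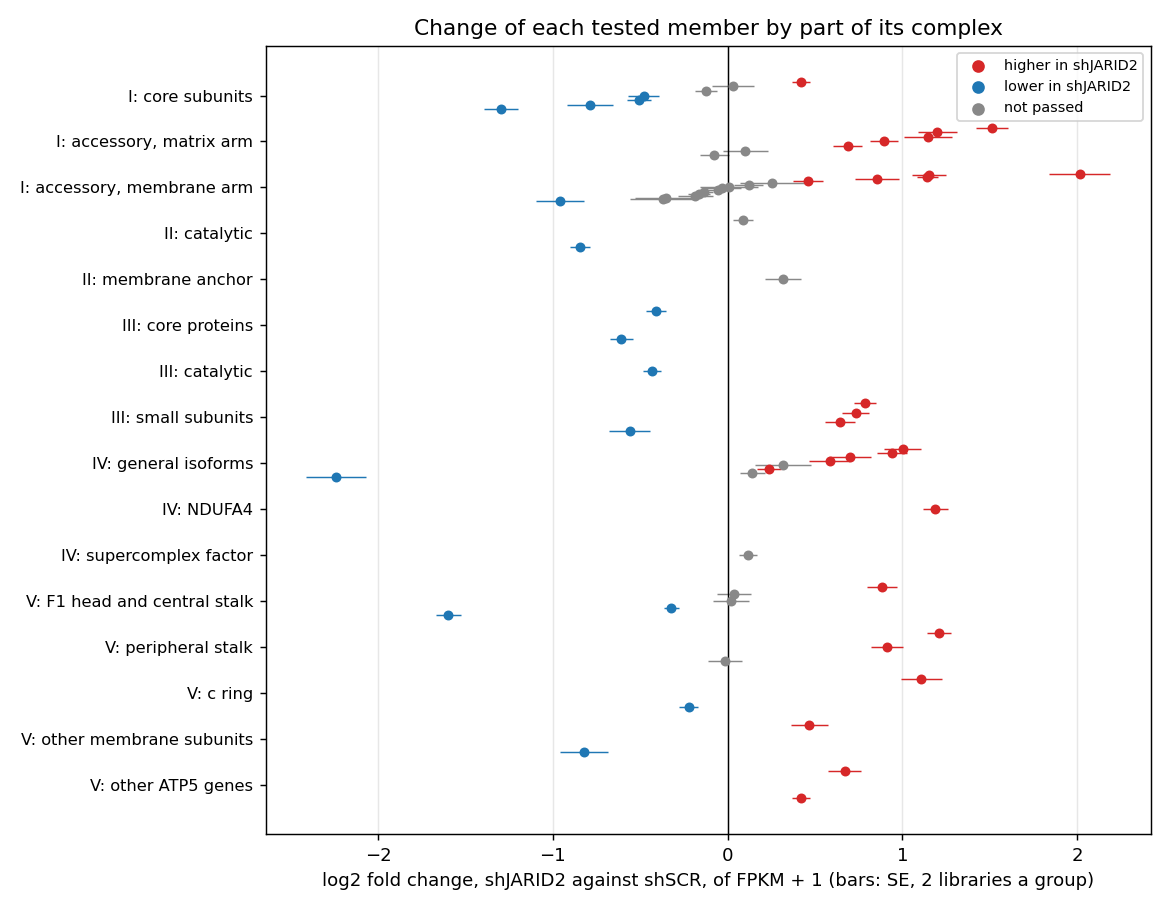
Change of each of the 64 tested members (log2 fold change of FPKM + 1, shJARID2 against shSCR, bars SE, 2 libraries a group), grouped by place in the complex and coloured by the test's call. The 5 called members of the complex I matrix-arm accessory row all lie right of 0, and the core and catalytic members of complex III all lie left of it.

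Complex II, succinate dehydrogenase, takes electrons from the citric acid cycle and is the 1 complex encoded wholly by nuclear genes. Of its 3 tested members, 1 was lower (33.3%, beside 31.6% of all genes) and none was higher by the limma test. SDHA, the flavoprotein that oxidises succinate, had 14.7 and 15.1 FPKM in shSCR and 7.66 and 8.06 FPKM in shJARID2 (chromosome 5, 218241 to 256700, plus strand). The knockdown mean was 0.527 of the scramble mean with no overlap, and the change was -0.84 (SE 0.0562, adjusted p = 0.0014; -0.65 corrected). SDHB, the iron-sulphur subunit that binds SDHA, had 23.2 and 24.4 FPKM in shSCR and 24.5 and 26.3 FPKM in shJARID2, and its change of 0.089 did not pass (adjusted p = 0.25). SDHC, a membrane anchor, had 4.70 and 3.87 FPKM in shSCR and 5.71 and 5.41 FPKM in shJARID2. Its groups did not overlap but the change of 0.32 missed the threshold (adjusted p = 0.056), and the corrected change of 0.38 passed it (adjusted p = 0.040). The corrected call was lost without either shJARID2 library and without the second shSCR library. SDHD, the other anchor, did not reach the filter, with 0.864 and 0.914 FPKM in shSCR and 0.599 and 0.771 FPKM in shJARID2.

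Complex III, the cytochrome bc1 complex, hands electrons from ubiquinol to cytochrome c. All 7 tested members passed the test, 3 higher (42.9%, beside 28.0% of all genes) and 4 lower (57.1%, beside 31.6%). After GC correction 3 were higher (42.9%, beside 22.7%) and 3 lower (42.9%, beside 21.4%). The core proteins and the Rieske subunit were lower and 3 of the 4 tested small subunits were higher. UQCRC2, a core protein, had 11.8 and 11.4 FPKM in shSCR and 7.56 and 6.99 FPKM in shJARID2, with no overlap (change -0.61, -0.83 corrected). UQCRFS1, the Rieske iron-sulphur protein, had 34.7 and 35.3 FPKM in shSCR and 26.4 and 24.9 FPKM in shJARID2, also with no overlap (-0.43, -0.62 corrected). UQCRC1, the other core protein, fell from 34.3 and 33.2 FPKM to 24.2 and 26.2 FPKM. Its change of -0.41 became 0.13 after correction, where it did not pass.

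UQCR10, a small subunit with the highest mean of complex III, had 45.7 and 44.9 FPKM in shSCR and 77.5 and 65.7 FPKM in shJARID2. UQCRH, the hinge protein that contacts cytochrome c1, had 29.3 and 32.5 FPKM in shSCR and 54.3 and 49.7 FPKM in shJARID2. UQCRB, which lies at the ubiquinone-binding side, had 10.9 and 11.8 FPKM in shSCR and 21.0 and 19.8 FPKM in shJARID2. For each of these 3 genes both knockdown libraries were above both scramble libraries. The changes were 0.64 for UQCR10, 0.73 for UQCRH and 0.79 for UQCRB, and 0.69, 0.62 and 0.37 after correction. The corrected UQCRB call was lost without the first library of either group. UQCRQ was the small subunit that fell, from 13.2 and 16.7 FPKM to 9.70 and 9.82 FPKM (change -0.56, -0.42 corrected). That call was lost without either shJARID2 library, and after correction also without the second shSCR library. GDF9 overlaps 20.8% of the UQCRQ exon length. The cytochrome c1 gene, CYC1, is outside the name rule: it had 111 and 113 FPKM in shSCR and 171 and 161 FPKM in shJARID2, and rose by 0.57 (1.29 corrected).

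Complex IV, cytochrome c oxidase, reduces oxygen. Of its 9 tested members, 5 were higher (55.6%), 1 was lower (11.1%) and 3 did not pass, with the same counts after GC correction. The shares of all genes were 28.0% and 31.6% as measured, and 22.7% and 21.4% after correction. COX5A, the subunit that binds thyroid hormone T2, had 37.2 and 32.4 FPKM in shSCR and 70.6 and 64.7 FPKM in shJARID2. COX6A1, the general isoform of subunit VIa, had 18.5 and 21.8 FPKM in shSCR and 44.2 and 38.6 FPKM in shJARID2. The groups did not overlap for either gene. COX5A rose by 0.94 (SE 0.0868, adjusted p = 0.0020; 1.05 corrected) and COX6A1 by 1.0 (SE 0.108, adjusted p = 0.0027; 1.13 corrected), and 13.0% of the COX6A1 exon length overlaps another gene.

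Smaller rises were seen for 3 further subunits, each of which lost its call when 1 library was left out. COX7C had 2.65 and 2.76 FPKM in shSCR and 5.62 and 4.47 FPKM in shJARID2 (0.70, 0.39 corrected), a call lost without either shSCR library. After correction it was also lost without the first shJARID2 library. COX4I1, an early-assembling regulatory subunit, had 9.16 and 8.44 FPKM in shSCR and 15.3 and 12.2 FPKM in shJARID2 (0.58, 0.93 corrected), likewise lost without either shSCR library. COX6B1, which binds cytochrome c and was the member with the highest mean of all, had 159 and 179 FPKM in shSCR and 201 and 197 FPKM in shJARID2. Its change was 0.24 (limma adjusted p = 0.041) and 0.61 after correction. The call as measured was lost without either shJARID2 library, without the first shSCR library and with no filter. COX6B1 has 7 annotated pseudogene copies.

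COX8A, the smallest nuclear subunit (chromosome 11, 63974607 to 63976543, plus strand), fell further than any other member. It had 16.7 and 23.0 FPKM in shSCR and 3.66 and 3.08 FPKM in shJARID2. The knockdown libraries were both well below the scramble libraries, at a ratio of means of 0.170, and the change was -2.24 (SE 0.172, adjusted p = 0.0016; -1.71 corrected). Its values rest on 131 and 189 reads in shSCR and 24 and 20 in shJARID2, and another gene overlaps 34.5% of its exon length. COX6C, COX7A2 and COX7A2L, a supercomplex assembly factor, had changes of 0.14, 0.32 and 0.12 and did not pass. The tissue-limited isoforms (COX4I2, COX6A2, COX6B2, COX7A1, COX7B2 and COX8C), known from lung, muscle and testis, were all below the filter. COX6A2 and COX6B2 were listed at 0 in all 4 libraries, and COX7A1 had the highest value of these, 1.73 FPKM in the first shSCR library. The general form was therefore the more abundant of each tested pair: COX4I1 over COX4I2, COX6A1 over COX6A2, COX6B1 over COX6B2, COX7A2 over COX7A1 and COX8A over COX8C. COX7B (0.555 to 1.63 FPKM) and COX7B2 (0 to 0.230 FPKM) were both below the filter.

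In complex V, 7 of 14 tested members were higher (beside 28.0% of all genes), 4 lower (28.6%, beside 31.6%) and 3 did not pass. After GC correction 6 were higher (42.9%, beside 22.7%) and 4 lower (28.6%, beside 21.4%). The summed FPKM was 358 and 357 in shSCR and 373 and 357 in shJARID2, so the sums of the groups overlapped while single subunits moved in both directions. In the F1 head, ATP5F1A, the alpha subunit, had 18.3 and 18.2 FPKM in shSCR and 37.3 and 31.9 FPKM in shJARID2, and rose by 0.88 (0.81 corrected). ATP5F1B, the catalytic beta subunit with which it alternates in the hexamer, had 169 and 170.2 FPKM in shSCR and 132 and 138 FPKM in shJARID2, and fell by 0.32 on the log2 scale (by 0.26 corrected). Neither gene's groups overlapped. ATP5F1A has 7 annotated pseudogene copies, and the corrected ATP5F1B call was lost without either shSCR library.

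ATP5F1D, the delta subunit of the central stalk (chromosome 19, 1241746 to 1244826, plus strand), had 35.8 and 40.1 FPKM in shSCR and 12.1 and 11.6 FPKM in shJARID2. The libraries were clearly separate, at a ratio of means of 0.312. The change was -1.60 (SE 0.0706, adjusted p = 0.0014) and -0.62 after GC correction, still past the threshold; at 68.1% its transcripts had the highest GC content of the members that fell. ATP5F1C (gamma) and ATP5F1E (epsilon), the other central stalk subunits, had changes of 0.018 and 0.037 and did not pass. ATP5F1E was called lower only after correction (-0.36), a call lost whichever library was left out. TUBB1 overlaps 23.2% of the ATP5F1E exon length.

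In the peripheral stalk, which holds the head still, 2 of 3 tested subunits rose (66.7%, beside 28.0% of all genes). ATP5PD had 10.3 and 10.3 FPKM in shSCR and 26.4 and 23.9 FPKM in shJARID2, and ATP5PB had 28.9 and 28.2 FPKM in shSCR and 59.4 and 50.4 FPKM in shJARID2. Both had groups that did not overlap, with changes of 1.21 (SE 0.0659, adjusted p = 0.0014; 1.02 corrected) and 0.91 (SE 0.0888, adjusted p = 0.0023; 0.70 corrected). Exons of other genes overlap 19.1% of ATP5PD and 10.3% of ATP5PB. ATP5PO, which joins the stalk to the head and confers oligomycin sensitivity, was at 2.15 to 2.41 FPKM and did not pass (-0.013).

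The subunit c ring, which turns as protons pass, is built of 1 mature protein that is encoded by 3 genes. ATP5MC1 had 27.0 and 25.3 FPKM in shSCR and 21.9 and 22.6 FPKM in shJARID2, and ATP5MC3 had 4.29 and 3.69 FPKM in shSCR and 10.7 and 8.89 FPKM in shJARID2. The third gene, ATP5MC2, was below the filter at 0.647 to 0.871 FPKM. ATP5MC3 rose by 1.11 (SE 0.117, adjusted p = 0.0026; 0.93 corrected). The call of ATP5MC1, at -0.22, was lost whichever library was left out, with no filter and after correction (0.044). ATP5MC1 has 7 annotated pseudogene copies. ATP5MC3 made up 13.4% and 12.4% of the summed FPKM of the 3 genes in shSCR and 31.9% and 27.5% in shJARID2, and ATP5MC1 84.6% and 85.3% in shSCR and 65.5% and 69.9% in shJARID2.

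Of the other membrane subunits, ATP5MF (subunit f) had 5.59 and 6.19 FPKM in shSCR and 3.36 and 2.47 FPKM in shJARID2. It fell by 0.82 on the log2 scale (by 0.67 corrected), a call lost without the second shSCR library and, after correction, without either. ATP5MG (subunit g) rose by 0.47, a call lost without the first library of either group, with no filter and after correction (0.22). It has 6 annotated pseudogene copies, and other genes overlap 12.5% of its exon length. ATP5IF1, the inhibitor that blocks ATP hydrolysis by the enzyme, had 20.4 and 21.2 FPKM in shSCR and 29 and 27.4 FPKM in shJARID2, with no overlap and a change of 0.42 (0.49 corrected). ATP5S, which carries the name but is not an established subunit, rose by 0.67 (0.66 corrected), and other genes overlap 20.1% of its exon length.

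**Figure D3:**
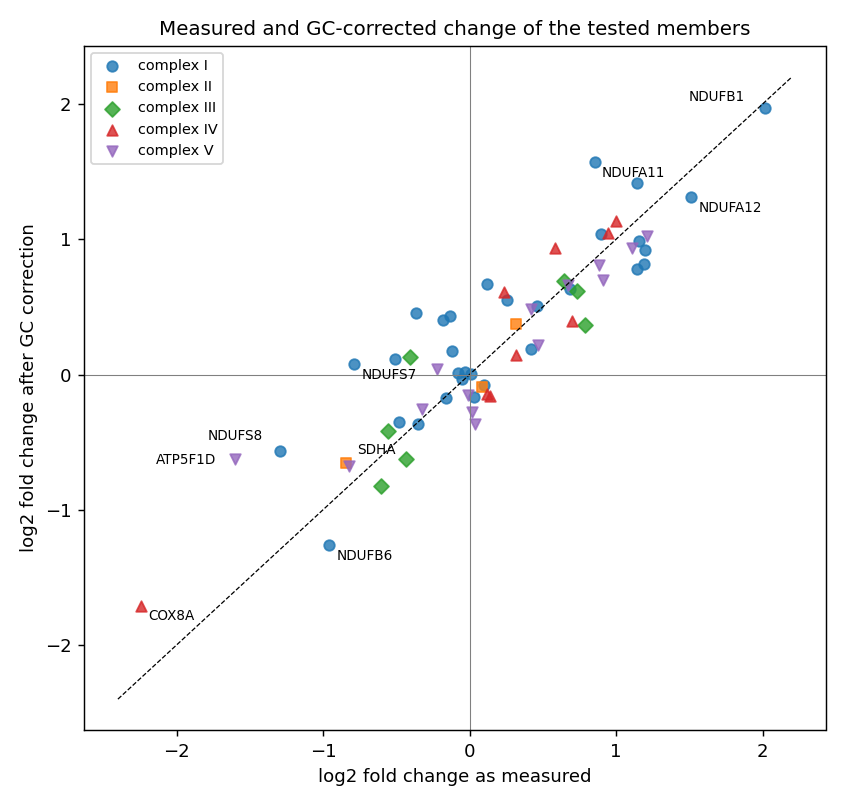
Change of each tested member as measured (x axis) and after correction for transcript GC content (y axis), both log2, with complexes by symbol; the dashed line marks equal values. ATP5F1D (-1.60 and -0.62) and NDUFS8 (-1.30 and -0.57) moved most toward 0, NDUFA11 (0.85 and 1.57) moved away from it, and NDUFB1 and COX8A stayed at the ends.

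The 24 members below the filter include genes whose products are part of the complexes in every tissue. COX5B was listed at 0.0448 and 0.0429 FPKM in shSCR and at 0.107 and 0 in shJARID2, and NDUFA8 at 0 in 3 libraries and 0.0925 FPKM in the second shJARID2 library. Neither shares annotated exons with another gene, but COX5B has 6 annotated pseudogene copies and its value is uncertain. NDUFA13 (0.173 to 0.958 FPKM), NDUFA5 (0.609 to 1.25 FPKM), NDUFA7 (0.276 to 0.656 FPKM), NDUFB3 (0.504 to 1.12 FPKM), UQCR11 (0.323 to 1.44 FPKM), ATP5PF (0.643 to 1.12 FPKM), ATP5MD (0.482 to 1.29 FPKM), ATP5ME (0 to 0.329 FPKM) and ATP5MPL (0.737 to 0.869 FPKM) were below the filter too. Such values are unusual for subunits that every cell uses, and the authors' assignment of reads could not be examined here, so they are given as listed and not as a measure of absent expression. UQCRHL, a relative of UQCRH (0 to 0.118 FPKM), and the read-through gene ATP5MF-PTCD1 (0 to 0.0677 FPKM) were near 0. With no filter, ATP5MGL, a relative of subunit g, was the only 1 of the 24 to pass the limma test. It had 0.565 and 0.464 FPKM in shSCR and 0.0966 and 0.0978 FPKM in shJARID2 (change -0.46, adjusted p = 0.018). These values rest on only 7 and 6 reads in shSCR and 1 and 1 in shJARID2.

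Transcript features differed along with the direction. The median GC content was 47.6% for the 27 higher members, 52.6% for the 15 lower and 48.7% for the 22 that did not pass. Over the 64 members the Spearman rho of change and GC content was -0.42, a description with no test, and 0.016 after correction. Members below their median GC content numbered 17 higher and 3 lower of 32 (53.1% and 9.38%). Those at or above it numbered 10 higher and 12 lower of 32 (31.2% and 37.5%), beside 28.0% and 31.6% of all genes. After correction these counts were 16 and 4, and 14 and 8, each of 32, beside 22.7% and 21.4% of all genes. The members also encode short proteins: the median longest coding length was 435 bases for the higher, 708 for the lower and 512 for those that did not pass, beside 1458 over the 10432 protein-coding genes tested. The 691 protein-coding genes with a coding length at or below the members' median had a median change of 0.13. The members' median change of 0.12 covers all 64, including those with longer coding lengths, so these medians do not compare like sets.

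**Figure D4:**
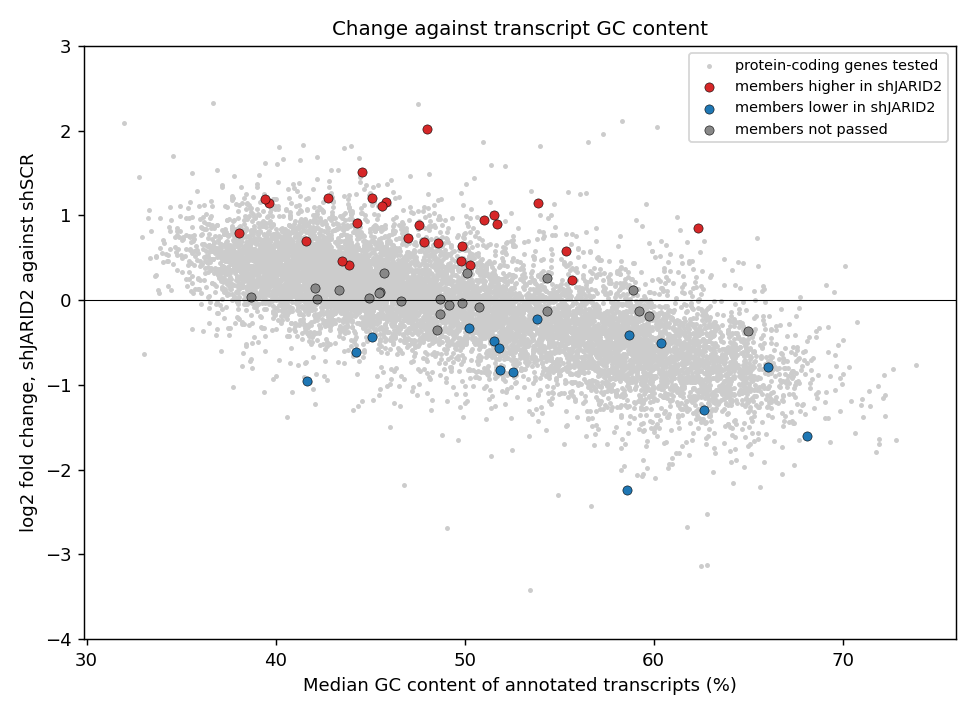
Change of each protein-coding gene tested (small grey points) and of the members (large points, coloured by call) against the median GC content of the annotated transcripts in percent. The cloud slopes down from left to right, and the members span 38.1% (a higher member) to 68.1% GC (ATP5F1D, lower).

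Genes that serve the same complexes were counted from lists that do not overlap the members. Of 49 tested assembly factors of complexes I to V, 19 were higher (38.8%, beside 28.0% of all genes) and 7 lower (14.3%, beside 31.6%). Their median change was 0.16. After GC correction 20 were higher (40.8%, beside 22.7%) and 3 lower (6.12%, beside 21.4%). For complex I, 6 of 17 were higher (35.3%) and 4 lower (23.5%). NDUFAF2, which helps to attach the NADH-oxidising module, had 19.2 and 18.8 FPKM in shSCR and 69.2 and 58.9 FPKM in shJARID2, without overlap (change 1.69, 1.40 corrected). TMEM126B, of the membrane-arm assembly complex, rose by 1.26 (0.85 corrected) and NDUFAF4 by 0.90 (0.42 corrected). TMEM186, of the same complex as TMEM126B, fell by 1.03 on the log2 scale, a call lost without either shSCR library.

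For complex II, 3 of 4 assembly factors were higher (75.0%, beside 28.0% of all genes) and 1 was lower (25.0%, beside 31.6%). SDHAF2, which helps flavin attach to SDHA, had 11.8 and 11.6 FPKM in shSCR and 22.8 and 22.7 FPKM in shJARID2, with no overlap and a change of 0.90 (0.83 corrected). SDHAF3 rose by 1.15 and SDHAF4 by 0.81 (0.82 and 0.62 corrected), while SDHA itself fell. SDHAF1, at -0.33, was called in the opposite direction after correction (0.43), as was the complex I factor NDUFAF3 (-0.39 and 0.30), named here after its values were seen. The SDHAF1 call as measured was lost whichever library was left out and was not made by limma-voom (adjusted p = 0.16), and both NDUFAF3 calls were lost without either shSCR library. For complex III, 1 of 5 was higher, TTC19 (0.35), and none was lower by the limma test.

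For complex IV, 9 of 21 tested assembly factors were higher (42.9%, beside 28.0% of all genes) and 1 was lower (4.76%, beside 31.6%). After correction 7 were higher (33.3%, beside 22.7%) and 1 lower (4.76%, beside 21.4%). COA6, a copper-handling factor, had 9.70 and 8.65 FPKM in shSCR and 36.8 and 31.8 FPKM in shJARID2, with no overlap (change 1.79, 1.55 corrected), and overlaps another gene over 11% of its exons. PET117 rose by 1.28, COX14 by 1.13 and COA5 by 0.80 (1.12, 1.45 and 0.48 corrected); 62.4% of the PET117 exon length is shared. Of 2 tested factors for complex V, ATPAF2 was lower (-0.49, -0.007 corrected), a call lost without the first library of either group and without the second shSCR library.

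Among 17 tested genes for cytochrome c and coenzyme Q, the mobile carriers, 3 were higher (17.6%) and 4 lower (23.5%). Both shares were below those of all genes, 28.0% and 31.6%. CYCS, cytochrome c itself, had 32.6 and 33.9 FPKM in shSCR and 56.4 and 51.7 FPKM in shJARID2 and rose by 0.68 (0.42 corrected) without overlap. COQ2, an early enzyme of coenzyme Q synthesis, rose by 0.94 (0.91 corrected). COQ8B and COQ8A fell by 0.79 and 0.51 on the log2 scale, and both calls were lost after correction and without the second shSCR library. NDUFAB1, the acyl carrier protein of complex I that the name rule misses, rose by 0.93 (0.85 corrected). Of the 13 subunits encoded by mitochondrial DNA, 5 had rows with a symbol, at 0 to 5.36 FPKM, and neither of the 2 that were tested passed: MT-ND3 at 0.24 and MT-CO1 at -0.40 (adjusted p = 0.055). After correction MT-CO1 passed as lower, at -0.56, a call lost without either shSCR library and without the second shJARID2 library. Its values rest on 45 and 50 reads in shSCR and 28 and 21 in shJARID2.

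Of 15 regulators of nuclear and mitochondrial transcription, 6 were higher (40.0%, beside 28.0% of all genes) and 4 lower (26.7%, beside 31.6%). ESRRA, the oestrogen-related receptor alpha, had 10.2 and 10.0 FPKM in shSCR and 2.75 and 3.14 FPKM in shJARID2, and fell by 1.5 on the log2 scale (by 0.71 corrected). TFAM, which packages and transcribes mitochondrial DNA, had 11.1 and 10.2 FPKM in shSCR and 24.4 and 22.7 FPKM in shJARID2, and rose by 1.07 (0.71 corrected). Neither gene's groups overlapped. TFB2M, a mitochondrial transcription factor, rose by 0.67 and GABPB1, a subunit of GABP, by 0.64 (0.37 and 0.42 corrected). Both corrected calls were lost without either shSCR library.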

How the data were processed

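RNA-seq was run on 2 shSCR and 2 shJARID2 libraries. The authors deposited 1 table of FPKM values per library; per the submitters' processing notes, Trimmomatic, HISAT2, SAMtools and featureCounts were used, and versions, genome build, annotation and strand setting were not given in the sources used here. Of 85553 rows, 60420 had no symbol and were left out of tests; they held 21.1 to 24.5% of summed FPKM. Of the 25133 named genes, 24205 matched GENCODE 29 (GRCh38), which gave positions, exon overlap and GC content.

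Whole reads were recovered from FPKM steps: 95.8 to 96.3% of values up to 20 reads came within 0.05 of a whole number. The main test was limma 3.58.1 in R 4.3.3 (mean trend, group only, 2 residual degrees of freedom) on log2(FPKM + 1) for 12455 genes with a mean of at least 1 FPKM, with Benjamini-Hochberg adjustment over all of them and a threshold of 0.05. GC correction subtracted a loess fit (span 0.3) per library. The fit was tested on simulated data. Other settings were a pseudocount of 0.1, no filter, 1 FPKM in 2 libraries, median-ratio scaling, limma-voom on recovered reads, a replicate block, and each library left out.

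The members and all gene lists were chosen with earlier results of these data known. Named genes are the most abundant member and up to 4 largest called rises and falls of each complex, SDH genes, paralog sets, members below the filter and up to 4 called genes of each other list; further names were chosen after their values were seen. Values of 1 complex I member are not reported here, though it is in the counts and sums.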

Additional observations from a re-analysis of the deposited data

Results flagged for a closer look

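Pseudogene-named rows were left out of the members, and 34 such rows were in the tables. Of these, 15 could be tested and 5 were called higher in shJARID2 (33.3%, beside 28.0% of all genes), outside the main measurement. The row of ATP5F1AP2, a copy of the alpha subunit gene, was listed at 0.771 and 0.369 FPKM in shSCR and 9.69 and 8.09 FPKM in shJARID2, a change of 2.66, where ATP5F1A itself rose by 0.88. NDUFB4P12 had 4.30 and 3.48 FPKM in shSCR and 16.8 and 18.6 FPKM in shJARID2, a change of 1.94, where NDUFB4 rose by 1.16. COX6A1P2 rose by 0.86, UQCRBP1 by 0.81 and COX7CP1 by 0.69; the calls of UQCRBP1 and COX7CP1 were lost after GC correction. The COX6A1P2 and COX7CP1 calls were each lost without either shSCR library and without the second shJARID2 library. COX7CP1 rests on 4 to 9 reads a library and did not pass with limma-voom (adjusted p = 0.22), and COX6A1P2 did not pass with the replicate block. Among the same rows UQCRFS1P1 was lower (-1.32), a call lost without the first shSCR library, and UQCRFS1 was lower too. How reads with matches in both a gene and its copy were assigned is not given in the sources used here, and their role in these values was not tested.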

How the results depend on the processing

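The number of members called ranged from 22 to 26 higher and 11 to 14 lower when 1 library was left out, and from 25 to 31 higher and 12 to 17 lower under the other fits. JARID2 stayed lower, between -1.15 and -1.47. Without 1 library, complex I had 3 to 6 lower members (3 without the second shSCR library), complex IV 2 to 4 higher (2 without the first and 3 without the second shSCR library) and complex V 2 to 3 lower (2 without the second shSCR library); in such fits the lone library was assumed to vary like the other group. Leaving out the members with shared exons or many pseudogene copies gave 15 higher members in all, 7 higher and 3 lower in complex I, 3 higher and 0 lower in complex IV and 2 higher in complex V; fewer members were counted there. In complex II, SDHC made 1 higher member under median-ratio scaling, limma-voom, GC correction and the replicate block. GC correction left 3 lower members in complex I and turned the sign of 17 of the 64 members, 10 of which passed neither test. Those that passed at least 1 test, with named genes of the other lists, were NDUFA3 (0.41), NDUFB10 (0.43), NDUFS7 (0.076), NDUFV1 (0.11), UQCRC1 (0.13), ATP5F1E (-0.36), ATP5MC1 (0.044), NDUFAF3 (0.30), SDHAF1 (0.43) and COQ8A (0.0025); the cause was not tested. With the replicate block alone 28 members were higher and 17 lower, 7 of the latter in complex I. NDUFB7 was among these lower members (-0.37, limma adjusted p = 0.019) and was also called lower by limma-voom (-0.39, adjusted p = 0.0498). With the block and GC correction together the values were those of the correction alone. NDUFB7 (0.45), whose sign the correction turns, then passed as higher, so different fits called it in opposite directions. The numbers do not pair the libraries: deviations of same-numbered libraries had a correlation of 0.029 over 12455 genes. Among the 64 tested members the lowest value behind a call rests on 20 reads. Calls of some pseudogene-named rows, and the call made with no filter, rest on fewer. No limit of detection was worked out for low members.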

Other observations

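Some subunits of 1 complex moved apart by more than their libraries spread, and the pairs given here were chosen after their values were seen, as values only. The FPKM of UQCRH was 2.47 and 2.86 times that of UQCRC2 in shSCR and 7.18 and 7.11 times in shJARID2. ATP5PD stood at 0.288 and 0.256 of ATP5F1D in shSCR and at 2.18 and 2.06 in shJARID2. NDUFB1 stood at 0.869 and 1.09 of NDUFS8 in shSCR and at 13.7 and 10.4 in shJARID2, and COX5A at 2.23 and 1.41 of COX8A in shSCR and at 19.3 and 21.0 in shJARID2. COX8A rests on 24 and 20 reads in shJARID2, and another gene overlaps 34.5% of its exon length. The ratios use FPKM without GC correction. Corrected changes were 0.62 and -0.83 for UQCRH and UQCRC2, and 1.02 and -0.62 for ATP5PD and ATP5F1D. They were 1.97 and -0.57 for NDUFB1 and NDUFS8, and 1.05 and -1.71 for COX5A and COX8A. In the same order of pairs, transcript GC content was 47.0% and 44.2%, 45.1% and 68.1%, 48.0% and 62.7%, and 51.0% and 58.6%. The subunits of these pairs are held in fixed proportions in the assembled complexes, and protein levels were not measured here.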
